A study of Mus musculus with 4 samples.

Results

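Basement membranes are thin sheets of extracellular matrix beneath endothelium and around muscle, nerve and fat cells. Laminins, trimers of an alpha, a beta and a gamma chain, form a polymer at the cell surface, and collagen IV forms a second network. Nidogens and the heparan sulfate proteoglycan perlecan connect the networks. In a heart valve, endothelium and vessel or muscle cells at the leaflet base are known to carry such sheets.

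The transcripts described here encode 5 laminin chains (Lama2, Lama4, Lamb1, Lamb2, Lamc1), both nidogens (Nid1, Nid2), perlecan (Hspg2) and the common collagen IV chains (Col4a1, Col4a2). All probe sets annotated to exactly 1 of these 10 genes were taken, which gave 17 of the 22690 probe sets on the array. A probe set is a group of oligonucleotides that report 1 transcript, and its value is an intensity on a linear scale. After a filter on mean intensity (62.1 over the 4 arrays, the median of all values), 11 of the 17 remained, from 9 of the 10 genes. The 6 dimmer probe sets are described on their own.

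Total RNA of mouse mitral valve was measured on 1 array of Hom mice, 2 arrays of Het mice and 1 array of WT mice. Hom carries 2 Fbn1 alleles with the substitution C1039G in fibrillin-1, the main protein of extracellular microfibrils. Het carries 1 mutant allele, written in its label without the substituted residue and taken to be the same one, and WT carries none. Strain, age, sex and whether animals were pooled are not given in the sources used here, and the Fbn1 transcript was not analysed here. Nothing states that the Het arrays came from separate animals, so p-values measure only the spread between these arrays, and 4 arrays limit the precision of every value.

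Het replicate 2 stood apart from the other arrays. It lay at least 2-fold below Het replicate 1 at 6.11% of the 11354 probe sets that passed the filter, 2 of the 11 member probe sets (Lamc1 and 1 of Nid1) among them, and at least 2-fold above it at 3.88%, with 0 of the 11. Over all of these probe sets the log2 difference between the Het arrays had an SD of 0.62, and that between Hom and WT an SD of 0.34. The 3' to 5' ratio of Actb, a measure of RNA integrity, was 2.16 in Hom, 2.19 and 3.04 in the Het replicates, and 2.25 in WT. For Gapdh the ratios were 3.84, 3.19, 4.65 and 4.18 in that order. Valve interstitial and fibroblast markers were bright, with all 16 probe sets above the filter, as were 18 of 19 endothelial ones. Cardiomyocyte markers were also above it at 17 of 20. These 17 still summed to 24536 in Het replicate 2, the lowest array, so heart muscle RNA was present on every array. The Het arrays are therefore given separately, replicate 1 before replicate 2.

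No laminin, nidogen, perlecan or collagen IV probe set passed the test in any comparison of genotypes. The test was limma's, with Benjamini-Hochberg adjustment over all 11354 probe sets. Between groups it takes its spread from the Het pairs, largely pooled over all probe sets, and assumes that the lone Hom and WT arrays vary like them. The trend also counts as spread how far the groups depart from a line. It called 0 of the 11 member probe sets and 0.0% of all probe sets in each of 4 comparisons, namely Hom against WT, Het against WT, Hom against Het and a trend with allele number. At an unadjusted p of 0.05, limma passed 0 of 11 members in each, against 0.581%, 1.14%, 0.916% and 0.766% of all probe sets in the same order. These shares were smaller than a limit of 0.05 would pass on average if no probe set differed, so the test was a cautious one. The 95% confidence intervals remained wide, and 0 calls do not show that the genotypes were alike. For Col4a2, Hom minus WT was 0.18 log2 units with an interval of -0.98 to 1.35, which spans nearly 2-fold lower to more than 2-fold higher.

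**Figure D1:**
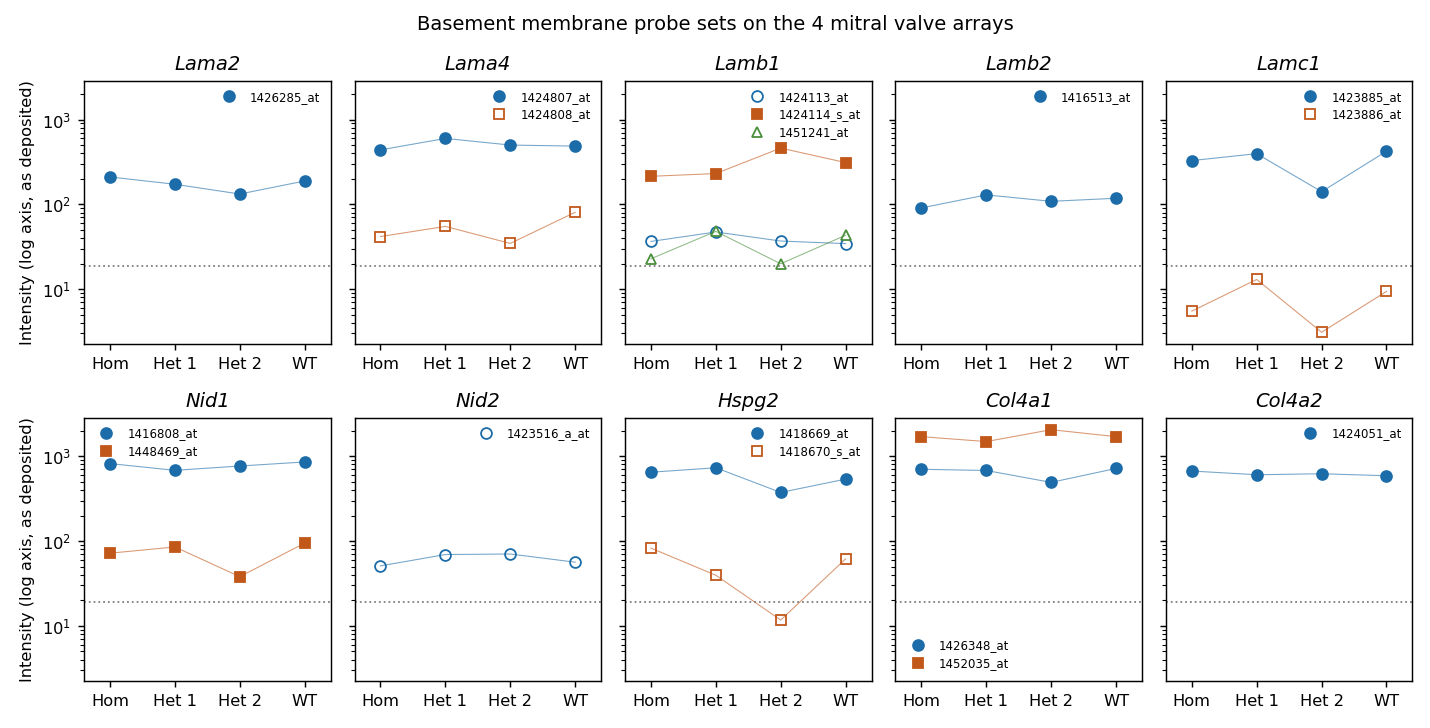
Intensity (log axis, as deposited) of all 17 probe sets of the 10 genes on the Hom, Het replicate 1, Het replicate 2 and WT arrays, 1 panel a gene; filled symbols passed the filter, open ones did not, and the dotted line is the floor of 18.9. Col4a2 stays between 588.9 and 669.2, while the brighter probe set of Lamc1 dips to 140.9 in Het replicate 2.

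As deposited, Col4a2 had the narrowest range over the 4 arrays of the 11 probe sets above the filter, 0.18 log2 units, and those of Col4a1 spanned 0.47 and 0.55. Col4a1 and Col4a2 encode the alpha chains that wind together into the collagen IV found in nearly all basement membranes. Col4a2 read 669.2 in Hom, 604.9 and 621.5 in the Het replicates, and 588.9 in WT. Every mutant array was above WT, by at most 1.14-fold, and it was the only member of 11 with both Het arrays between WT and Hom, a pattern found at 7.78% of all probe sets. The difference of Het replicate 2 from WT was 0.32 with each array centred on its median, above that of Hom, and 0.00 after quantile normalization.

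Col4a1 was read by a brighter and a dimmer probe set. The brighter one, 1452035_at, gave 1702.2 in Hom, 1489.3 and 2056 in the Het replicates 1 and 2, and 1702.1 in WT. Hom and WT were therefore alike to within 1 intensity unit, between the Het arrays. The dimmer one, 1426348_at, gave 702.1 in Hom, 679.2 and 491.9 in the Het replicates, and 717.7 in WT. The probe sets went opposite ways in Het replicate 2, at 0.27 and -0.55 log2 units from WT, a gap of 0.82. Among the 2179 genes with at least 2 probe sets above the filter, the median gap between the brightest pair for Het replicate 2 minus WT was 0.42, and 42.6% had a gap over 0.5. In Hom the Col4a1 gap was only 0.03 and in Het replicate 1 it was 0.11.

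Col4a1 and Col4a2 lie head to head on chromosome 8 and are known to be transcribed in opposite directions from a shared control region. By the RefSeq promoter windows, the start used for Col4a2, on the plus strand, and that used for Col4a1, on the minus strand, lie 22 bases from end to end, so that the first transcribed bases of the pair overlap. These bases (chr8:11312805-11312826, GRCm38.p6, plus strand) are shown because they mark how closely the genes adjoin; capitals mark a GC box, GGGCGG.
Col4a1 and Col4a2: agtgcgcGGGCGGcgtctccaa

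Among the laminin alpha chains, Lama2 and Lama4 did not move together. Lama2, the alpha chain of muscle laminin whose loss causes muscular dystrophy, read 210.2 in Hom, 172.5 and 132.3 in the Het replicates, and 188.6 in WT. Hom was the highest array and both Het arrays were below WT, by 0.13 and 0.51 log2 units. Hom was 0.48 above the Het mean log2 units (SE 0.47, limma adjusted p = 1), the highest such difference among the 11 member probe sets. The gap between the Het arrays was 0.38, more than the 0.16 between Hom and WT.

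Lama4, the alpha chain of endothelial and vessel laminin, read 438.5 in Hom, 598.9 and 500.1 in the Het replicates, and 486 in WT by its brighter probe set. Here Hom was the lowest array, 0.15 log2 units below WT, and the Het arrays were above WT by 0.30 and 0.04. The second difference was -0.04 after quantile normalization. Its dimmer probe set, 1424808_at, fell short of the filter and read 41.7 in Hom, 54.9 and 34.6 in the Het replicates, and 80.6 in WT. That probe set was highest in WT, with a Hom minus WT difference of -0.95 (SE 0.55, limma adjusted p = 1 in a fit without the filter).

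Both beta chains read lowest in Hom by their probe sets above the filter. Lamb1, the most widely used beta chain, read 214.1 in Hom, 230.6 and 460.6 in the Het replicates, and 310.8 in WT by probe set 1424114_s_at. Probe sets with this suffix may hybridise with more than a single transcript. Hom lay below both Het arrays and 0.54 log2 units below WT (SE 0.61, limma adjusted p = 1), the lowest Hom minus WT difference of the 11. The Het arrays stood on opposite sides of WT, at -0.43 and 0.57. This gap of just under 2-fold between arrays of 1 genotype exceeded every difference between Hom and WT among the members.

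The other Lamb1 probe sets were dim and did not follow it. Probe set 1424113_at read 36.5 in Hom, 47.2 and 36.9 in the Het replicates, and 34.4 in WT. Probe set 1451241_at read 22.8 in Hom, 48 and 19.9 in the Het replicates, and 43.2 in WT. Hom minus WT was therefore 0.09 by the first and -0.92 by the second, and Het replicate 2, the highest array by the bright probe set, was the lowest by the second. Lamb2, the beta chain of synapses and kidney filters, read 90.7 in Hom, 129.2 and 108.5 in the Het replicates, and 117.9 in WT. Hom was below all other arrays, 1.3-fold below WT, and the Hom minus WT difference of -0.38 had an SE of 0.54 (limma adjusted p = 1). Lamb2 was 1 of the 2 kept probe sets at which Hom and WT differed by more than the Het arrays did.

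Lamc1, the gamma chain shared by most laminins and the one that nidogen binds, gave the widest gap between the Het arrays. It read 328.2 in Hom, 395.8 and 140.9 in the Het replicates, and 423.5 in WT. WT was the highest array, and Het replicate 2 lay 3.01-fold below it and 2.81-fold below Het replicate 1. The Het mean was 0.84 log2 units below WT (SE 0.59, limma adjusted p = 1, below WT in 2 of 2 Het arrays), the lowest of the 11, while Het replicate 1 alone was 0.10 below it. The other Lamc1 probe set was at or below the floor of 18.9 on all 4 arrays and gave no difference.

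Nid1, the nidogen that links laminin to collagen IV, was read by a bright and a dim probe set. The bright one, 1416808_at, gave 818.9 in Hom, 682.2 and 766.9 in the Het replicates, and 856 in WT. WT was the highest array and Hom the next, 0.06 log2 units lower, with the Het arrays at -0.33 and -0.16. The last of these was 0.08 with each array centred on its median. The dim one, 1448469_at, gave 71.9 in Hom, 85.1 and 38 in the Het replicates, and 94.6 in WT. It put Het replicate 2 at 1.32 log2 units below WT, 1.16 further than the bright probe set did.

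Nid2, the second nidogen, read 50.9 in Hom, 69.3 and 70.3 in the Het replicates, and 56.3 in WT, a mean of 61.7 that missed the filter narrowly as deposited. The nearest probe set inside it was the dim one of Nid1, with a mean of 72.4. The Het arrays were within 0.02 log2 units of each other and above WT by 0.30 and 0.32, whereas Hom was 0.15 below WT. In a fit without the filter limma gave an unadjusted p of 0.0172 for Het against WT and 0.00992 for Hom against Het, with adjusted p of 0.454 and 0.365. These small unadjusted values came with an SE of 0.02, taken from a Het pair that happened to be close. The closeness depended on the scaling. With centred arrays, where Nid2 passed the filter, the Het arrays were 0.28 and 0.56 above WT, and after quantile normalization, where it also passed, 0.28 and 0.53. In these fits with the filter, limma's unadjusted p for Het against WT was 0.407 with centring and 0.367 after quantile normalization.

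Perlecan, encoded by Hspg2, binds growth factors through its heparan sulfate chains. Its brighter probe set read 647.8 in Hom, 731.3 and 374 in the Het replicates, and 537.4 in WT. Hom was 1.21-fold above WT, the highest Hom minus WT difference of the 11 at 0.27 log2 units (SE 0.60, limma adjusted p = 1), and both Hom and WT lay between the Het arrays. The dim probe set 1418670_s_at, of the same kind as that of Lamb1, read 82.5 in Hom, 39.5 and 11.7 in the Het replicates, and 61.6 in WT. It too was above WT in Hom, by 0.42, and Hom was at least 4.37-fold above Het replicate 2, which fell below the floor.

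The upstream stretches of Nid1 and Hspg2 are shown because each gene had a bright and a dim probe set that were both lower in Het replicate 2 than in WT as deposited. They run from the 5' end of the RefSeq promoter window to the base before the first annotated start, for Nid1 chr13:13437352-13437601 and for Hspg2 chr4:137468553-137468750 (GRCm38.p6, plus strand). The Nid1 stretch overlaps another annotated gene, Gm7426. Capitals mark GGGCGG or CCAAT read on either strand, which did not overlap each other.
Nid1: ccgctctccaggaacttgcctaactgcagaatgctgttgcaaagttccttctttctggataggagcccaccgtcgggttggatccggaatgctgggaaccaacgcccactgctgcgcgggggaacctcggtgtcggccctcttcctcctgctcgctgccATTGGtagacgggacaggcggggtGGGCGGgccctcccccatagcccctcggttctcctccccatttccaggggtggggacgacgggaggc
Hspg2: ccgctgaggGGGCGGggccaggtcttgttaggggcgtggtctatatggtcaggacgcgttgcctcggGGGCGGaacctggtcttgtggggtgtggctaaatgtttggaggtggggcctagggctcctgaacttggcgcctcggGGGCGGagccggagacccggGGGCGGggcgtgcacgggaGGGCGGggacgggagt

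The Hspg2 stretch held GGGCGG at 5 places and no CCAAT, and the Nid1 stretch held each at 1 place. Of the 10 genes, 7 had a promoter window of 300 bases in the table, and Lama4, Lamc1 and Nid2 had none. GGGCGG on either strand was found in 6 of the 7 windows and in 35.7% of all 32851 windows, CCAAT in 4 of 7 and in 37.4%, and TATAAA in 0 of 7 and in 13.6%. Lamb2 was the member whose window held none of them, and its GC content was the lowest, 44.0%. The other member windows ran from 50.3% (Lama2) to 74.0% (Col4a1). GGGCGG is made of G and C only, and windows of like GC content were not compared. The windows of Col4a1 and Col4a2 overlap by 78 bases and share the GGGCGG shown above, the only one in the Col4a1 window. A match of letters describes the window and shows no binding, and the arrays did not measure promoters.

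**Figure D2:**
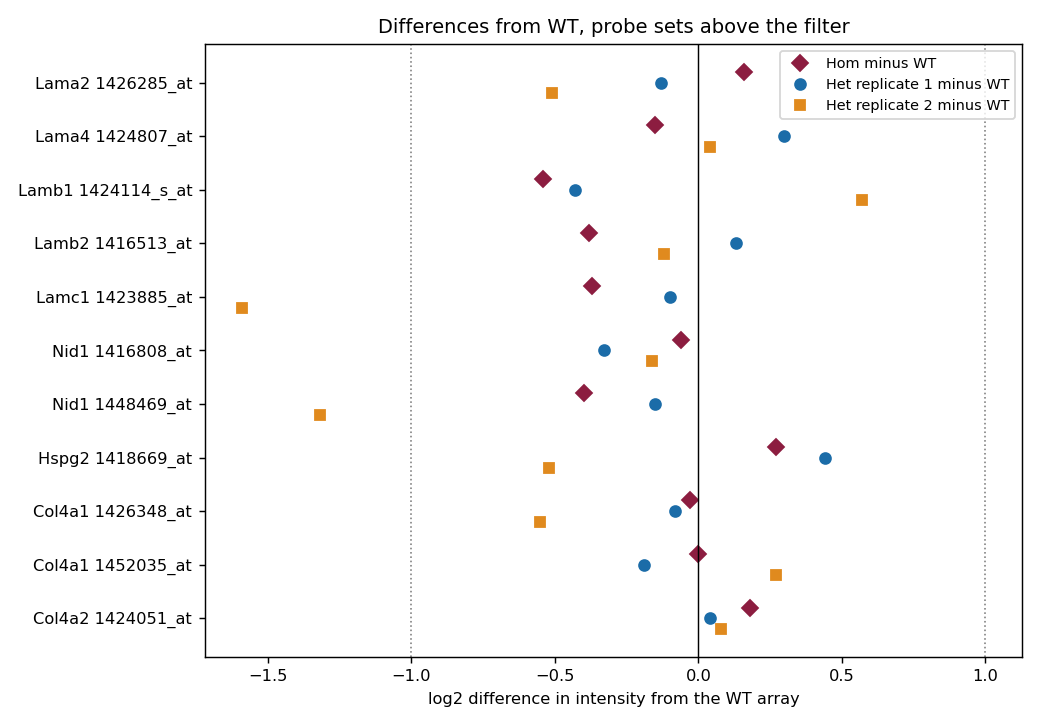
Log2 difference in intensity from the WT array for the 11 probe sets above the filter, in Hom (diamonds), Het replicate 1 (circles) and Het replicate 2 (squares); dotted lines mark 2-fold. Hom and Het replicate 1 stay inside 2-fold throughout, and Het replicate 2 passes it at Lamc1 (-1.59) and at the dim probe set of Nid1 (-1.32).

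The comparison of Hom with WT asked how these transcripts differ when both Fbn1 alleles are mutant. Differences ran from -0.54 at Lamb1 to 0.27 at Hspg2, with 4 probe sets above WT, 7 below it and 6 within 0.2 log2 units. The median of the 11 was -0.06, against 0.01 for all probe sets. None of the 11 was 2-fold apart, nor 1.5-fold, where 1.23% and 7.61% of all probe sets were. At 9 of the 11 Hom and WT were closer together than the Het arrays, as they were at 70.2% of all probe sets. The sign of the brighter Col4a1 probe set, 0.00 as deposited, was not settled, at -0.04 with centred arrays and 0.07 after quantile normalization.

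For 1 mutant allele, the Het arrays gave different answers against the WT array they share. In Het replicate 1 differences ran from -0.43 at Lamb1 to 0.44 at Hspg2, with a median of -0.10 against 0.01 for all probe sets, and 0 of 11 were 2-fold apart (2.01% of all). In Het replicate 2 they ran from -1.59 at Lamc1 to 0.57 at Lamb1, with a median of -0.16 against -0.07. There 2 of 11 were at least 2-fold lower (4.75% of all) and 0 were at least 2-fold higher (2.56% of all). The same count of 2 was obtained with centred arrays and after quantile normalization, although over all probe sets the split of higher against lower was 291 to 539 as deposited, 646 to 259 with centring and 307 to 346 with quantile normalization.

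Both Het arrays were below WT at 5 of the 11 probe sets (28.6% of all), namely Lama2, Lamc1, both of Nid1 and the dimmer one of Col4a1, and above it at 2 (25.7% of all), Lama4 and Col4a2. With centred arrays, where Nid2 enters as a 12th probe set, 4 of 12 were below WT in both (21.1% of all), the bright probe set of Nid1 having crossed. WT lay between the Het arrays at the other 4 (45.5% of all). The Het mean was 2-fold apart from WT at 0 of 11 (1.73% of all), and Hom from the Het mean at 0 of 11 (1.53% of all).

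Hom was above both Het arrays at 4 of the 11 (30.0% of all), namely Lama2, Col4a2, the bright probe set of Nid1 and the dimmer one of Col4a1. It was below both at 3 (24.2% of all), Lama4, Lamb1 and Lamb2. Hom minus the Het mean had a median of 0.18, against 0.04 for all probe sets. Without Het replicate 2 the median was -0.11, against 0.00 for all, and without Het replicate 1 it was 0.11, against 0.08. With centred arrays it was 0.00, against -0.11 for all, and without the filter 0.00, against 0.00.

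**Figure D3:**
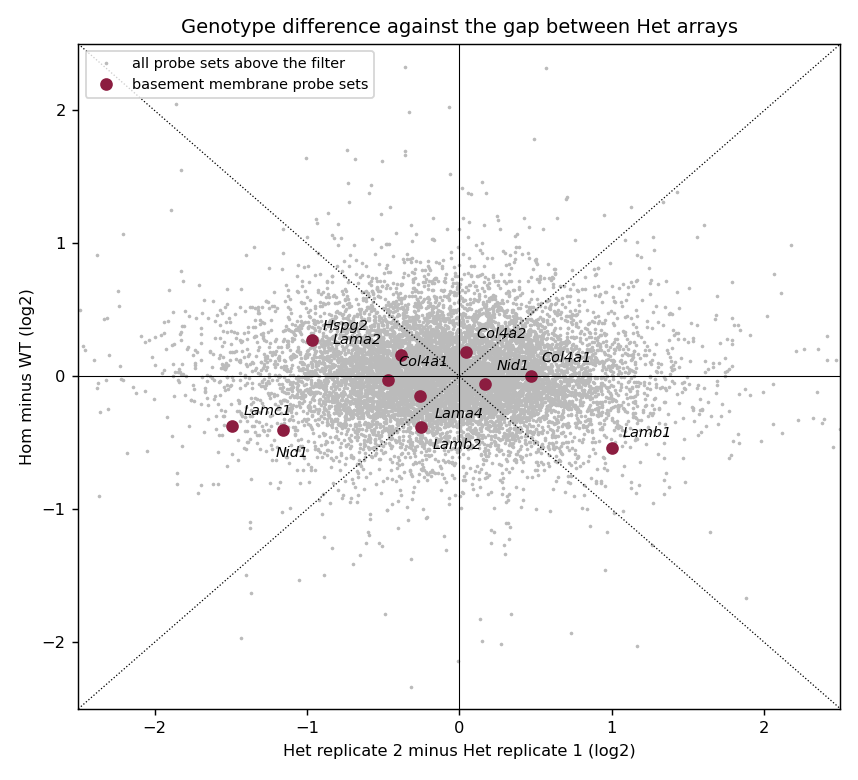
Hom minus WT (vertical) against Het replicate 2 minus Het replicate 1 (horizontal), in log2 units, for all 11354 probe sets above the filter (grey) and the 11 of the basement membrane genes (red, named). Points between the dotted diagonals to the left and right have a wider gap within Het than between Hom and WT, as 9 of the 11 do; axes stop at 2.5.

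The other genes of the basement membrane were taken from 6 lists, and no member of any was called by limma in any comparison. Of the other collagen IV chains 4 probe sets passed the filter, and their median was -0.89 in Het replicate 2, against 0.01 in Hom and 0.02 in Het replicate 1. Col4a5, an alpha chain of kidney and smooth muscle, read 163.6 in Hom, 140.9 and 68.7 in the Het replicates, and 148.8 in WT by 1 probe set. By another it read 179.6 in Hom, 141.7 and 178 in the Het replicates, and 178.8 in WT, so its probe sets disagreed in Het replicate 2, as those of Col4a1 did. Col4a3 had the lowest Hom minus WT difference of that list, -0.54. Lama5, the alpha chain of mature vessel endothelium, was the only other laminin chain above the filter, and its Hom minus WT differences were 0.18 and -0.16.

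Further components of the sheet had a median of -0.03 in Hom and of -0.28 and -0.29 in the Het replicates (14 probe sets). Of these, 8 of 14 were below WT in both Het arrays (28.6% of all probe sets). Col15a1, a collagen of the basement membrane zone, read 184.1 in Hom, 100.3 and 92.9 in the Het replicates, and 135.9 in WT, the highest Hom minus WT value of the list. Npnt, an integrin ligand, was lowest in both comparisons with WT, at 72.1 in Hom, 57.7 and 101.9 in the Het replicates, and 126.7 in WT. Tinagl1 stood highest in the Het mean relative to WT, at 357.3 and 393.8 in the Het replicates against 312.7 in WT.

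Laminin and collagen IV receptors (23 probe sets) had medians of -0.06 in Hom and of -0.01 and -0.47 in the Het replicates. Itgb4, the integrin beta chain of hemidesmosomes, read 110.9 in Hom, 70.7 and 78.3 in the Het replicates, and 156.2 in WT, and its Het mean was 1.07 log2 units below WT (SE 0.47, limma adjusted p = 1). Sgcb, a sarcoglycan of the dystrophin complex, stood highest in the Het mean relative to WT, by 0.56. Sdc4, a cell surface proteoglycan, was 0.88 above WT in Hom, and Utrn, the dystrophin relative utrophin, 0.73 below.

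Collagen folding and cross-linking enzymes (14 probe sets) had medians of 0.14 in Hom and of 0.17 and -0.22 in the Het replicates. P4ha2, a prolyl hydroxylase subunit, read 156.7 in Hom, 160.2 and 91.8 in the Het replicates, and 88 in WT. Plod2, a lysyl hydroxylase, read 310.1 in Hom, 191.7 and 361.7 in the Het replicates, and 435.2 in WT. Of the enzymes that attach sugars to dystroglycan, a laminin receptor, only 3 probe sets passed the filter, with Hom minus WT at 0.52 for B4gat1, 0.38 for Pomt2 and -0.13 for Pomgnt1.

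**Figure D4:**
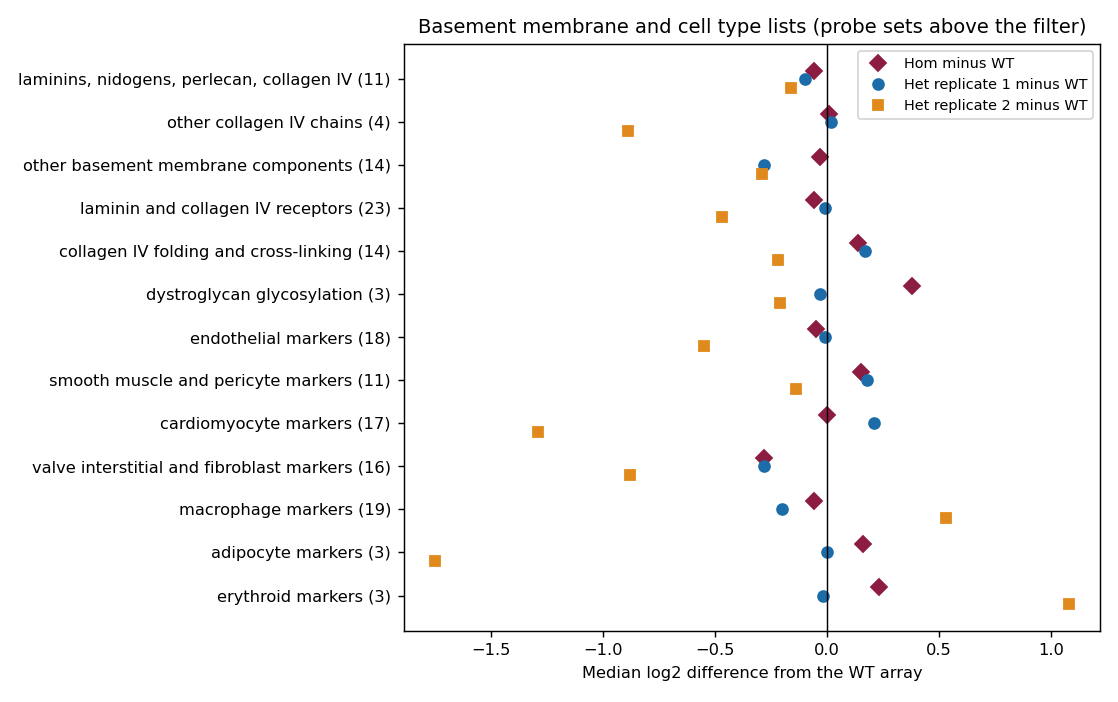
Median log2 difference from the WT array for the 10 basement membrane genes, the related lists and the cell type markers with at least 3 probe sets above the filter (number in brackets), in Hom (diamonds), Het replicate 1 (circles) and Het replicate 2 (squares). In Het replicate 2 cardiomyocyte markers lie at -1.29 and macrophage markers at 0.53, while the basement membrane genes lie at -0.16.

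Among cells that make or border basement membranes, endothelial, cardiomyocyte and interstitial markers had their lowest medians relative to WT in Het replicate 2. The same held for smooth muscle and pericyte markers and for adipocyte markers, but not for macrophage, erythroid or Schwann cell markers. In bulk tissue fewer cells of a type and less RNA per cell cannot be told apart. Endothelial markers (18 probe sets) summed to 8736 in Hom, 9336 and 6969 in the Het replicates, and 9416 in WT, with a median of -0.55 in Het replicate 2 and -0.01 in Het replicate 1. Cardiomyocyte markers (17) summed to 52643, 64165, 24536 and 52896 in the same order, with medians of -1.29 in Het replicate 2 and 0.21 in Het replicate 1.

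Interstitial and fibroblast markers had medians of -0.28 in Hom, and of -0.28 and -0.88 in the Het replicates, negative on every mutant array. These 16 probe sets summed to 64379 in Hom, 64035 and 43245 in the Het replicates, and 77684 in WT. Smooth muscle and pericyte markers (11) summed to 5770, 5697, 7020 and 4927 in that order. In Het replicate 2 Tagln alone read 2057.5, against 882.9 in WT, while the median difference of these 11 was -0.14, with 5 above WT and Des at -1.27. Macrophage markers (19) summed to 5284 in Hom, 4637 and 8695 in the Het replicates, and 5421 in WT. Fewer probe sets passed for adipocyte (3, medians -1.75 in Het replicate 2 and 0.00 in Het replicate 1), erythroid (3, 1.08 and -0.02) and Schwann cell markers (2, -0.18 and -0.15). No marker was listed at 0. The part of these markers, and of the Actb and Gapdh ratios of 3.04 and 4.65, in the low values of Het replicate 2 was not tested. Such values were those of Lamc1, Hspg2, Lama2, the dim probe set of Nid1 and the dimmer one of Col4a1.

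The median profile of the 11 probe sets, -0.06 in Hom and -0.10 and -0.16 in the Het replicates relative to WT, was a shallow one and held for the values as deposited; in Het replicate 2 it was 0.10 with centred arrays and -0.51 with the mean of a gene's probe sets. By Euclidean distance over these 3 differences, from 4 arrays, the 5 nearest other genes were Aldh3a2, Rcl1, Serinc3, Klf7 and Slc9a3r2, at 0.018 to 0.041 log2 units, and 64 probe sets lay within 0.1. The 11 member probe sets themselves lay further from it, at 0.23 (the bright one of Nid1) to 1.46 (Lamc1). Nearness to the median profile is therefore not likeness to any single member. Aldh3a2 read 126.5 in Hom, 125.7 and 119.7 in the Het replicates, and 133.5 in WT.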

How the data were processed

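The deposited values are intensities on a linear scale, 1 a probe set and array, and how they were computed is not given in the sources used here. By their values, the authors' scaling gave each array a 2% trimmed mean of 150.1, while medians ran from 54 to 65.5. The members and lists were chosen with earlier results of these data known. GEO's platform annotation named the probe sets, and gene identifiers gave current symbols (20393 had 1 gene, 691 several, 1606 none; 20364 matched).

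The scaling was used as deposited, since centring arrays on their median put the median probe set of Het replicate 2 0.18 log2 units above WT (-0.07 as deposited, -0.01 with quantile normalization). Values were floored at the 25th percentile, 18.9, and log2 transformed, so folds of genes under the floor are lower bounds. Without the 64 control probe sets, 11354 had a mean of at least 62.1, the median. limma 3.58.1 (R 4.3.3) fitted 3 groups, with 1 residual degree of freedom, or the number of mutant alleles (0, 1, 2), with 2. The script was tested on simulated data. At a threshold of 0.05, alternatives were centring, quantile normalization, no filter, a filter at the 75th percentile, log2(value + 1) without a floor, 1 value per gene, eBayes with trend and robust, 1.5-fold, and leaving out each Het array.

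Named were all member probe sets, of each other basement membrane list the highest and lowest differences from WT in Hom and in the Het mean, and the 5 nearest profiles. Of the cell type lists, only Tagln and Des were named. Figures were drawn with matplotlib 3.10.9.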

Additional observations from a re-analysis of the deposited data

How the results depend on the processing

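No paired analysis was possible because only Het has replicate numbers. No member was called by limma under any alternative, and without a Het array the 3 groups left no spread to test. Over all probe sets, limma called 3 for Het against WT and 1 for Hom against Het with eBayes trend and robust (Ppbp in both, with Eln and Clec1b in the first), and 1 for Het against WT (Ppbp) with the filter at the 75th percentile, where the settings in the report called 0; they were named after their values were seen. Members past 2-fold, 0 for the Het mean against WT and 0 for Hom against Het, were 1 and 1 of 17 without the filter (634 and 640 of all 22626) and 2 and 1 of 11 at 1.5-fold (1146 and 1134 of all 11354). Both ran from 0 to 2 with each Het array left out (228 and 203 of all without Het replicate 2, 830 and 834 without Het replicate 1); the 2 were Lamc1 and Nid1 or Lamb1 and Lamc1, without Het replicate 1.

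The member median for Hom minus WT (-0.06) was -0.14 with centred arrays (all probe sets -0.03) and -0.18 with the mean of a gene's probe sets. This mean, here and below, takes in the dim probe sets that failed the filter. For the Het mean minus WT (-0.04) it was 0.01 with 1 probe set per gene, 0.09 with centring, -0.32 with the mean of a gene's probe sets, and -0.16 to -0.10 with each Het array left out. For Het replicate 2 minus WT (-0.16) it was 0.10 with centring (all probe sets 0.18) and -0.51 with the mean of probe sets. For Hom minus the Het mean (0.18) it was 0.13 with 1 probe set per gene or their mean, 0.00 with centring or no filter, and -0.11 to 0.11 with each Het array left out. The cause was not tested. None of these medians was a called value. The 168 single values of members recomputed were Hom minus WT and the Het mean minus WT. Of these, 0 that were at least 0.2 log2 units from 0 with the settings in the report changed sign. Many could not change, since a filter leaves the value of a probe set as it is and Hom minus WT uses no Het array. Smaller values could change sign. Without Het replicate 2, the Het mean minus WT went from 0.07 to -0.43 at the bright probe set of Lamb1. At that of Hspg2 it went from -0.04 to 0.44. The dim probe sets of Lama4, Lamb1, Lamc1, Nid1, Nid2 and Hspg2 limit what can be read from them.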
